A study of Mus musculus with 8 samples.

Results

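The genes described here are 9 transcriptional regulators of cortical projection neuron fate, Fezf2, Bcl11b, Sox5, Tbr1, Tle4, Foxp2, Cux1, Cux2 and Bcl11a, out of 27998 genes measured in single cells. They were chosen by name, as regulators known from the sorting of projection neurons into classes. Their levels and their pairwise co-detection were compared in 2513 of 3000 cell barcodes, those with at most 25000 UMIs (unique molecular identifiers, so that 1 UMI counts 1 transcript). The barcodes were divided by the CR neuron transcript Reln, with 288 Reln-high barcodes (at least 5 Reln UMIs per 10000) and 2225 Reln-low barcodes.

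The cells were EGFP-positive cells sorted by FACS at E15.5 from the cerebral cortex of the strain Tg(Ebf2-EGFP)FB58Gsat, in which Ebf2 regulatory sequence drives EGFP. About 8 embryos of 2 pregnant mice were pooled. The labels list 8 samples of this 1 group, with no treatment or other genotype, and all their cells were in 1 matrix without a map from cells to samples. Since the library is a single pool, samples could not be tested against each other, and the 95% intervals given cover counting error only. EGFP transcripts were not analysed here, so the sorting label itself was not checked. A median Reln-high barcode held 17198 UMIs and a median Reln-low barcode 14823. The neuron markers were abundant in both classes, with 4 of 4 detected and a summed level of 7630 CPM (UMIs per 1000000 UMIs of the summed counts) in Reln-high and 8788 in Reln-low. The 8 markers of CR neurons had a summed level of 2064 CPM in Reln-high barcodes and 81.6 in Reln-low ones. Only 2 barcodes lay just above the Reln limit, at 5 to under 6 UMIs per 10000, and 15 lay just below it, at 4 to under 5.

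Projection neurons of the cortex are built in layers, and each class sends its axon to its own target. Fezf2 and Bcl11b (also called Ctip2) direct the subcerebral neurons of layer 5. Sox5, Tbr1, Tle4 and Foxp2 act in or mark layer 6 and subplate neurons, and Cux1 and Cux2 mark the upper layers. Several of these factors repress one another, so that a maturing neuron comes to hold one program and lose the others. CR neurons form the outermost layer, secrete Reelin, and are not projection neurons, although Tbr1 is known to be expressed in them.

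Fezf2, Bcl11b and Sox5 are shown by sequence because they were low together in Reln-high barcodes and detected together in Reln-low ones. Each stretch is part of the 250 bases before a RefSeq start site on GRCm38.p6, minus strand, with the bases that lie in an annotated exon left out. The Fezf2 stretch, chr14:12345960-12346115, and the Sox5 stretch, chr6:143947107-143947356, lie in introns of longer transcripts of the same gene. The Bcl11b stretch, chr12:108003603-108003664, lies directly upstream of the gene model. Capitals mark a match to CCCNNGGG, the core letters that EBF factors bind.
Fezf2: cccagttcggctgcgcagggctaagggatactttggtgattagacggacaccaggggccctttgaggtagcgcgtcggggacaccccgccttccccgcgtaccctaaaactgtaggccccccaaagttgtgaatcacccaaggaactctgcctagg
Bcl11b: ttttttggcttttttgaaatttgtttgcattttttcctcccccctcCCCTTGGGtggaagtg
Sox5: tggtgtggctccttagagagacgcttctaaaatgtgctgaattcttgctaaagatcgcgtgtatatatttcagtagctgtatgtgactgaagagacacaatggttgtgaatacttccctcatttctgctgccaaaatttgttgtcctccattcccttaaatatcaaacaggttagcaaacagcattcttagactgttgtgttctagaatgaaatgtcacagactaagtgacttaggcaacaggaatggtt
The core matched once in Bcl11b, 204 bases before the start site, and on either strand it matched in 11.8% of 32851 such windows over all genes. It also matched in 1 window each of Cux2 and Tle4, and not in those of Fezf2 or Sox5. Windows were found for 8 of the 9 genes, all but Foxp2. The T-box letters TCACACC were in none of these windows and in 3.33% of all windows, and the E-box CAGATG was in 1 Cux2 window and in 14.4% of all. A match in letters is a description and no evidence of binding.

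The first comparison asked which regulators were shared by CR neurons and the other sorted cells. Fezf2, Bcl11b, Sox5 and Foxp2 were at least 2-fold lower in Reln-high barcodes, Cux1 was at least 2-fold higher, and the other 4 genes were within 2-fold. The 4 of 9 that were lower stand beside 7.96% of the 10714 genes with at least 100 UMIs, and the 1 that was higher beside 7.99%. The median of all these genes was 0.12 on the log2 scale, and that of the 9 regulators was -0.98. Levels are in CPM, and UMIs per barcode are those left after each barcode was thinned at random to 10000 UMIs.

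**Figure D1:**
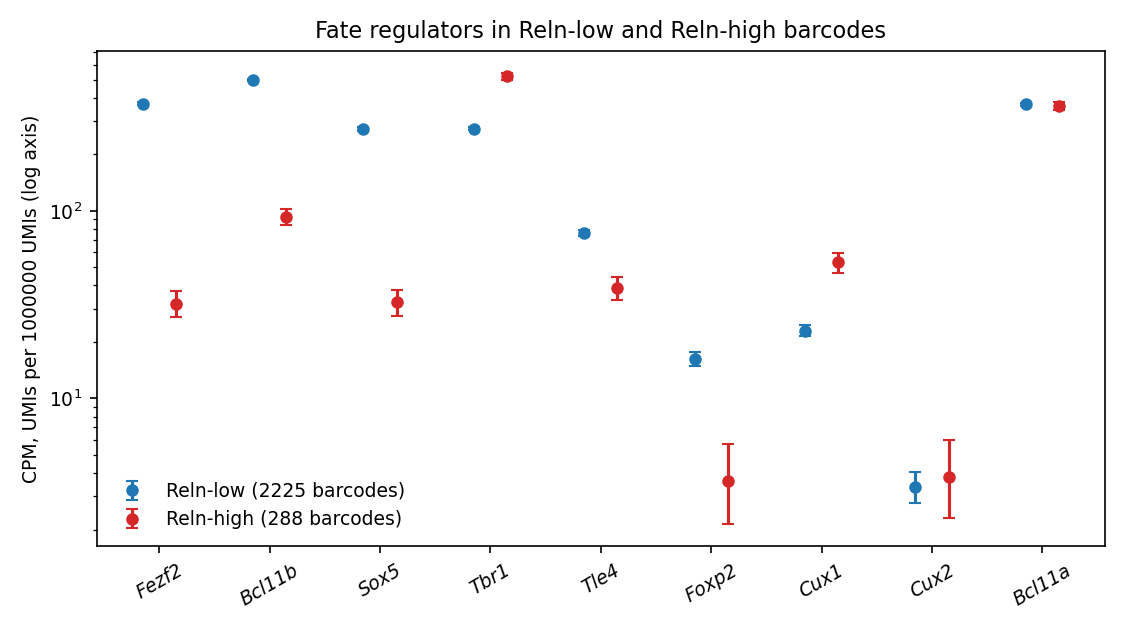
Levels of the 9 regulators in CPM (log axis) in Reln-low and Reln-high barcodes; points are levels of the summed counts and bars are 95% counting intervals. Fezf2 (372 against 31.9), Bcl11b (499 against 92.8) and Sox5 (273 against 32.5) sat far lower in Reln-high barcodes, Tbr1 and Cux1 sat higher, and Bcl11a overlapped.

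Fezf2, the selector of subcerebral identity (ENSMUSG00000021743, chr14:12342094-12348189), had 372 CPM (366 to 379) in Reln-low and 31.9 (27.1 to 37.2) in Reln-high barcodes, 11.7-fold lower (10.0 to 13.8). Per barcode the lowest, median and highest values were 0, 3 and 19 UMIs in Reln-low, and 0, 0 and 9 in Reln-high. The 2 distributions overlapped, since 19.4% of Reln-high barcodes still held a Fezf2 UMI, against 82.5% of Reln-low ones. As a measure of free RNA, the haemoglobin transcripts Hba-a1 and Hbb-bs, which neurons do not make, were detected in 14.9% and 16.0% of Reln-high and in 16.5% and 17.4% of Reln-low barcodes. The interval of the Fezf2 share in Reln-high barcodes (15 to 24.5%) held the share of Hbb-bs. The free-RNA share of the regulators themselves was not measured.

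Bcl11b, a zinc finger factor that acts downstream of Fezf2 in subcerebral axon growth (chr12:107910403-108003602), had 499 CPM in Reln-low and 92.8 in Reln-high barcodes, 5.38-fold lower (4.90 to 5.92). Its lowest, median and highest values were 0, 4 and 22 UMIs in Reln-low and 0, 0 and 9 in Reln-high barcodes. It was detected in 48.3% (42.4 to 54.2%) of Reln-high barcodes, above the shares of both haemoglobin transcripts. Of 7445 Hba-a1 UMIs in Reln-low barcodes 6800 lay in 1 barcode, whereas Bcl11b had 17104 UMIs in that class. Haemoglobin therefore sets no floor for Bcl11b, and the part of free RNA in its share was not tested.

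Sox5, which times the sequence of deep-layer and subplate identities (chr6:143828425-144781977), had 273.0 CPM in Reln-low and 32.5 in Reln-high barcodes, 8.41-fold lower (7.20 to 9.89). The per-barcode values ran from 0 through a median of 2 to 16 in Reln-low, and from 0 through a median of 0 to 5 in Reln-high. The size of these folds rested on which barcodes were taken. With barcodes above 25000 UMIs included, Fezf2 was 3.41-fold, Bcl11b 2.64-fold and Sox5 3.47-fold lower in Reln-high barcodes, and with a Reln limit of 2 per 10000 they were 3.12-fold, 2.28-fold and 2.96-fold lower. All 3 genes were detected in 67.3% of Reln-low (1497 of 2225) and in 5.90% of Reln-high barcodes (17 of 288).

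Tbr1, a T-box factor of layer 6, subplate and CR neurons (chr2:61802930-61814114), went the other way, with 273.5 CPM in Reln-low and 520.0 in Reln-high barcodes, 1.90-fold higher (1.82 to 1.99). Its lowest, median and highest values were 0, 2 and 15 UMIs in Reln-low and 0, 5 and 15 in Reln-high barcodes. It was detected in 97.9% of Reln-high barcodes and in 83.7% of Reln-low ones. Of the 9 genes it was one of 2, with Bcl11a, found in nearly every Reln-high barcode.

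Tle4, a Groucho corepressor of corticothalamic neurons (chr19:14448150-14598051), had 76.1 and 38.7 CPM, 1.97-fold lower (1.70 to 2.29) in Reln-high barcodes and so just short of the 2-fold limit. Foxp2, a forkhead factor of layer 6 (chr6:14901349-15441977), had 16.2 in Reln-low and 3.63 in Reln-high barcodes, 4.45-fold lower (2.79 to 7.57) on 18 UMIs in the Reln-high class. With a Reln limit of 2 per 10000 the log2 ratio of Foxp2 was -0.43, and it was no longer past 2-fold.

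Cux1, a homeodomain factor of upper-layer neurons (chr5:136248135-136567490), had 23.0 CPM in Reln-low and 53.0 in Reln-high barcodes, 2.31-fold higher (2.0 to 2.66). It was detected in 17.0% of Reln-low and 42.0% of Reln-high barcodes. Its 9 coding transcripts end over 65099 bases, and counts from transcript ends join them all, including ends used by transcripts that do not encode the homeodomain. Cux2, its close relative (chr5:121856366-122050102), had 3.36 and 3.83 CPM, a log2 difference of 0.19 (-0.59 to 0.90), so at this depth no difference was detectable. In Reln-low barcodes Foxp2 (12%) and Cux2 (2.74%) were detected no more often than haemoglobin, and Cux1 (17.0%) about as often. The levels of these genes nevertheless differed between clusters, as given further on.

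Bcl11a, a relative of Bcl11b with roles in deep-layer fate and migration (chr11:24078056-24174123), had 370 CPM in Reln-low and 361 in Reln-high barcodes, a log2 difference of -0.03 (-0.11 to 0.04). The median was 4 UMIs in Reln-low and 3 in Reln-high barcodes. It was detected in 93.5% and 95.8% of them, so unlike Bcl11b it had nearly one level on both sides of the Reln limit.

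The levels were next followed over steps of Reln. Fezf2 had 365, 374, 396 and 323 CPM in barcodes with 0, under 1, 1 to under 2 and 2 to under 5 Reln UMIs per 10000. It then had 96.1, 30.9 and 19.3 at 5 to under 10, 10 to under 20 and 20 or more. Within the step of 2 to under 5, the 15 barcodes at 4 to under 5 had 146 (102 to 204), which overlapped the 96.1 (71.1 to 127) of the 32 barcodes at 5 to under 10, so that Fezf2 was already lower just under the Reln limit. Bcl11b had 301 (236 to 379) in those 15 and 294 (249 to 345) in those 32 barcodes, and Sox5 had 134 (91.5 to 189) and 104 (77.8 to 136), all between the levels of the 2 classes. Tbr1 had 314 (247 to 393) at 4 to under 5 and 506 (446 to 571) at 5 to under 10, the latter close to its 546 and 502 in the higher steps. Barcodes with both Xist and Y-linked UMIs, a mark of 2 cells in 1 droplet, made up 2.08% of Reln-high and 0.899% of Reln-low barcodes. Without them, or without the barcodes of high Scrublet score, the same 4 regulators were at least 2-fold lower, and in the latter case the log2 ratio of Fezf2 was -3.58.

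The 56 Reln-high barcodes with a Fezf2 UMI were set beside the 232 without. Bcl11b had 166 (141 to 193) against 75.3 (67.0 to 84.3) CPM, and Sox5 62.5 (47.7 to 80.4) against 25.3 (20.6 to 30.7). Reln itself had 1914 (1828 to 2004) against 2020 (1976 to 2064), and the 8 CR markers together 1835 against 2118. Tbr1, Cux1 and Bcl11a had overlapping intervals between the 2 sets. Barcodes with both Xist and Y-linked UMIs numbered 3 in each set.

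The other genes of each program were counted in the same comparison. The counts stand beside the same shares of all genes, 7.96% lower and 7.99% higher. A list's 1 higher gene among 10 or 12 was thus near the share of all genes. Of the 7 layer 6 corticothalamic genes all 7 were at least 2-fold lower in Reln-high barcodes, such as the p53 target Rprm with 832 and 141 CPM. Of 12 layer 5 subcerebral genes 7 were lower and 1 higher, which was Pcp4, a calmodulin regulator, with 209 and 1157. Of 10 callosal and upper-layer genes 7 were lower, among them the nuclear receptor Rorb with 35.7 and 4.23, and 1, the LIM factor Lhx2, was higher with 90.9 and 209. Cux1 was thus higher where 7 of 10 genes listed with its own layers were lower.

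Of 4 subplate genes tested 2 were lower (Nr4a2 and Tmem178) and 1 higher (Nxph3). Of 17 relatives and cofactors of the regulators 3 were lower and 1 higher, beside 7.96% and 7.99% of all genes, so the 1 was near that share. The 3 were Fezf1, a paralogue of Fezf2, with 4.67 and 1.21 CPM, and the relatives of Foxp2, Foxp1 with 88.4 and 31.3 and Foxp4 with 50.4 and 9.07. The 1 was Eomes, a relative of Tbr1 found in intermediate progenitors, with 5.05 and 19.4. The median log2 ratio of the 17 was 0.03, near that of all genes.

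The second comparison asked which regulators were found in the same cell. A gene was called detected with at least 1 UMI after thinning, and a pair by the odds ratio of detection, the odds of finding the second gene in barcodes with the first over the odds in barcodes without it. Pairs at 2 or more are called together and pairs at 0.5 or less apart. In Reln-low barcodes 35 of the 36 pairs had enough barcodes to be assessed, with all 4 expected counts at least 5, and the exception was Cux2 with Bcl11a. Of the 35 pairs 12 were together, beside 0.205% of 37632150 pairs of all genes in the same barcodes, and 7 were apart, beside 0.31%. All 19 intervals left out 1. These backgrounds are of genes detected in 5% to 95% of the barcodes, which leaves out Cux2, and with Cux2 or Fezf2 as 1 of the pair 5.62% and 5.1% of all genes were apart. The shares together were likewise higher with a regulator as 1 of the pair. They were 2.3% with Fezf2, 2.95% with Sox5, 3.12% with Tbr1, 2.98% with Tle4 and 4.03% with Cux2. The median odds ratio was 1.14 over the 35 pairs and 1.01 over all pairs.

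**Figure D2:**
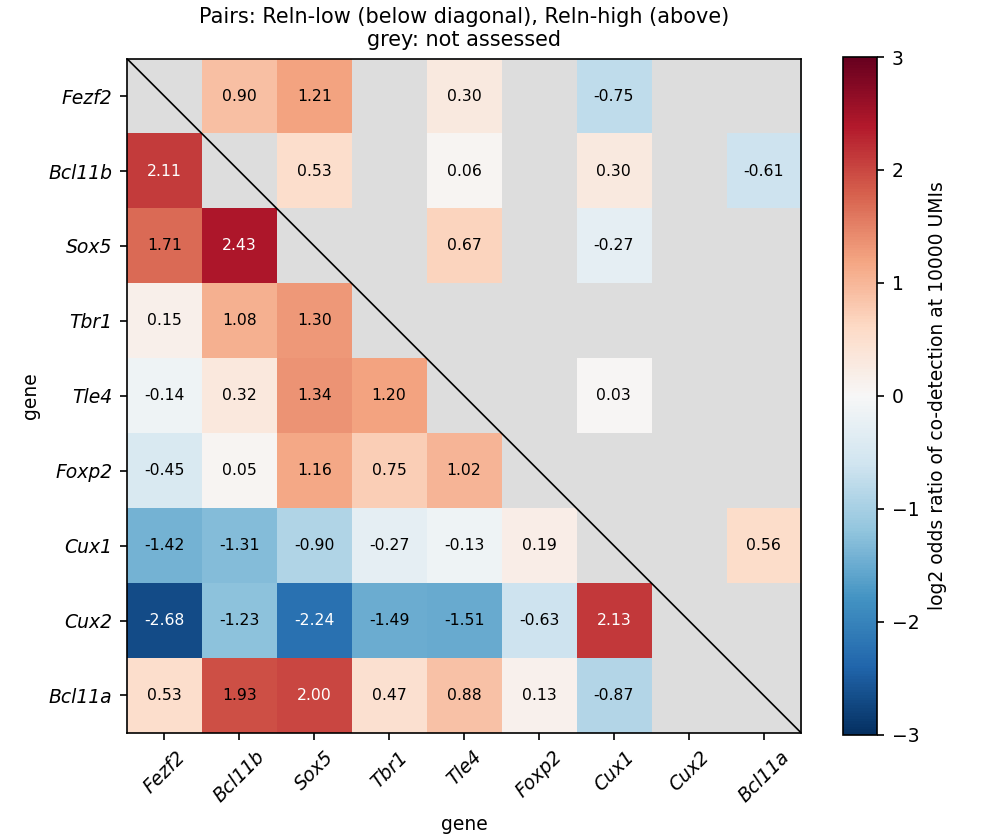
Log2 odds ratio of co-detection (colour and number) for each pair of the 9 regulators at 10000 UMIs per barcode, with Reln-low barcodes below and Reln-high barcodes above the diagonal; grey pairs had too few barcodes. Below the diagonal, Fezf2, Bcl11b and Sox5 form a red block and the row of Cux2 is blue except with Cux1 (2.13).

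Fezf2, Bcl11b and Sox5 were together in all 3 of their pairs. Bcl11b and Sox5 had an odds ratio of 5.37 (3.92 to 7.36), with both in 1707 barcodes, and Fezf2 and Bcl11b had 4.30 (3.12 to 5.91), with both in 1724 where 1673 were expected from their separate shares. Bcl11b was found in 93.9% of barcodes with Fezf2 and in 78.1% of those without. Fezf2 and Sox5 had 3.27 (2.54 to 4.2). Sox5 was the gene most often together with others, in 6 pairs, since it was also together with Tbr1 (2.46), Tle4 (2.53), Foxp2 (2.23) and Bcl11a (4.0). Bcl11a was together with Bcl11b too, at 3.80 (2.44 to 5.82), with both in 1919 barcodes where 1897 were expected. With at least 3 and at least 5 UMIs of each gene, Bcl11b and Bcl11a had 1.58 and 1.29. Sox5 and Bcl11a had 1.54 and 1.15 (0.931 to 1.42) at these limits.

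Among the layer 6 genes, Tbr1 and Tle4 had 2.3 (1.79 to 2.99) and Tle4 and Foxp2 2.03 (1.55 to 2.66). Bcl11b and Tbr1 had 2.11 (1.48 to 2.98). The upper-layer pair Cux1 and Cux2 had 4.38 (2.51 to 7.58), with both in 28 barcodes. These 28 were 1.26% of Reln-low barcodes, so the upper-layer pair was rare in these cells.

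All 7 pairs that were apart held Cux1 or Cux2. Fezf2 and Cux2 had 0.156 (0.0893 to 0.270), with both in 27 barcodes where 50.3 were expected. Cux2 was also apart from Sox5 (0.212), Tle4 (0.350), Tbr1 (0.356) and Bcl11b (0.427). Fezf2 and Cux1 had 0.374 (0.289 to 0.487), and Bcl11b and Cux1 0.403 (0.289 to 0.568). Cux1 was found in 14.2% of barcodes with Fezf2 and in 30.6% of those without. Sox5 and Cux1, at 0.537 (0.413 to 0.701), were just short of the limit.

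By detection alone the layer 5 gene Fezf2 and the layer 6 genes Tbr1 and Tle4 were neither together nor apart, at 1.11 (0.82 to 1.49) and 0.907 (0.724 to 1.14). Their levels told more than their presence. With at least 3 UMIs of each gene the odds ratio of Fezf2 and Tbr1 was 0.719 (0.606 to 0.853), and with at least 5 UMIs it was 0.603 (0.476 to 0.761). Fezf2 and Tle4 had 0.614 (0.456 to 0.825) and 0.254 (0.0649 to 0.722) at the same limits, the last on 4 barcodes with both. These higher limits were chosen after the data were seen.

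Bcl11b and Tbr1, together by detection, had 0.985 (0.816 to 1.19) at 3 UMIs and 0.586 (0.475 to 0.724) at 5 UMIs. Tbr1 and Tle4 instead had 3.34 (2.42 to 4.67) and 4.42 (2.13 to 9.25). Bcl11b and Tle4 had 0.349 (0.143 to 0.773) at 5 UMIs, on 9 barcodes with both. At 5 UMIs of each gene, Fezf2 and Bcl11b were thus each found with Tbr1 and with Tle4 less often than independence gives, while Tbr1 and Tle4 were together at each of the limits of 1, 3 and 5 UMIs. Sox5 stayed above 1, with 1.99 (1.61 to 2.45) with Fezf2 and 1.40 (1.15 to 1.72) with Bcl11b at 5 UMIs.

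The same was seen in the levels of the other genes by the UMIs of Fezf2. In Reln-low barcodes with 0, 1, 2, 3 to 4 and 5 or more Fezf2 UMIs (389, 342, 290, 462 and 742 barcodes), mean Bcl11b was 2.88, 3.89, 4.78, 5.36 and 6.22 UMIs per barcode. Mean Sox5 was 1.80, 2.52, 2.73, 2.84 and 3.63. Bcl11b was higher at every step, while the Sox5 values at 1, 2 and 3 to 4 Fezf2 UMIs had overlapping intervals. Mean Tbr1 was 3.35, 3.20, 3.05, 2.55 and 2.58, so that barcodes with 5 or more Fezf2 UMIs held 77% (71.7 to 82.6%) of the Tbr1 of those with none. Mean Tle4 was 0.979 at the lowest and 0.635 at the highest step, and mean Foxp2 was 0.326 and 0.128. Bcl11a, at 3.95 and 3.78, hardly varied.

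**Figure D3:**
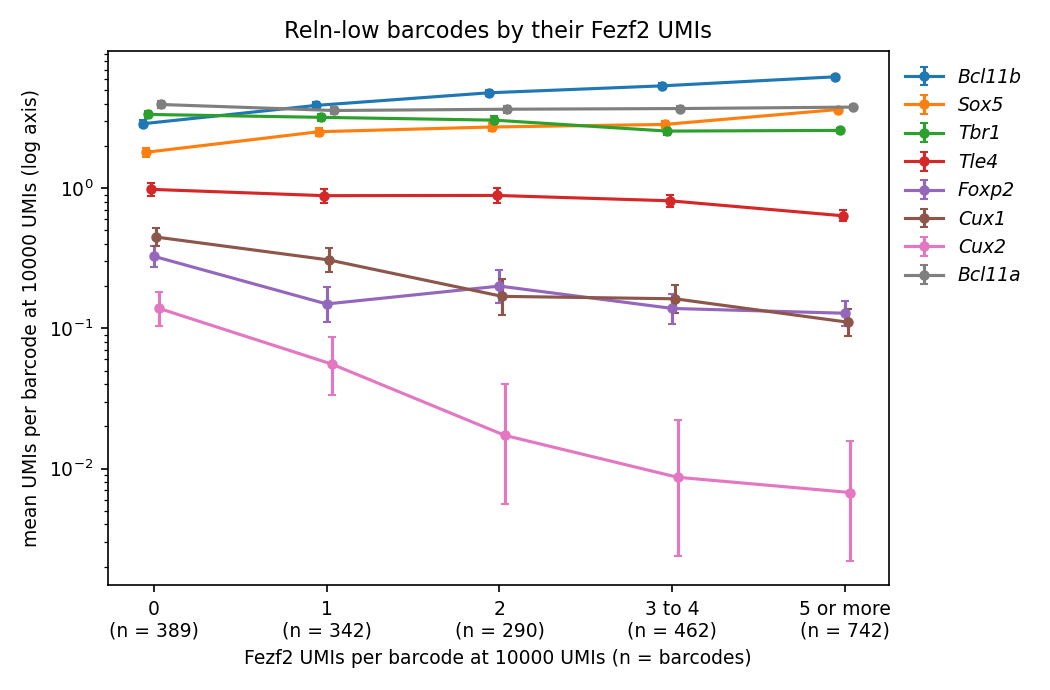
Mean UMIs per barcode of the other 8 regulators (log axis) in Reln-low barcodes grouped by their Fezf2 UMIs, all at 10000 UMIs per barcode; bars are 95% counting intervals. Bcl11b rose from 2.88 to 6.22 and Sox5 from 1.80 to 3.63, Tbr1 and Tle4 were lower at high Fezf2, and Cux1 and Cux2 had the steepest slopes downward.

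The upper-layer genes followed Fezf2 most steeply. Mean Cux1 was 0.447, 0.307, 0.169, 0.162 and 0.111 UMIs per barcode over the same steps, and Cux2 was 0.139 (0.104 to 0.181) in barcodes without Fezf2 and 0.00674 (0.00219 to 0.0157) at 5 or more, the latter on 5 UMIs. By the UMIs of Tbr1, mean Tle4 was 0.417, 0.491, 0.697, 0.940 and 1.28, with overlapping intervals only between 0 and 1 Tbr1 UMI. Over the same Tbr1 steps mean Fezf2 was 3.56, 4.01, 3.95, 3.86 and 3.03. Mean Bcl11b was 4.85, 5.12, 5.22, 5.06 and 4.34. Both were thus below their level at 0 Tbr1 UMIs only at 5 or more. By the UMIs of Cux1, mean Fezf2 was 3.92 at 0, 2.75 at 1 and 1.46 at 2 Cux1 UMIs. The steps of 3 to 4 and of 5 or more Cux1 UMIs had 17 and 4 barcodes and are not read.

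In Reln-high barcodes 12 of 36 pairs could be assessed. None was apart, beside 4.27% of all gene pairs there, and 1 was together, beside 3.77%. Over 12 pairs, counts of 0 and 1 were near these shares, so neither is read as a trait of the regulators. The 1 pair together was Fezf2 and Sox5, at 2.31 (1.15 to 4.54), with both in 20 barcodes. It was no longer called under several of the alternatives given further on. The other 11 intervals held 1, among them Fezf2 and Bcl11b at 1.87 (0.99 to 3.57) and Fezf2 and Cux1 at 0.593 (0.301 to 1.14). For 2 of the 12 pairs the interval did not overlap that of Reln-low barcodes. Bcl11b and Sox5 had 1.45 (0.80 to 2.63) against 5.37 (3.92 to 7.36), and Bcl11b and Cux1 had 1.23 (0.75 to 2.02) against 0.403 (0.289 to 0.568). For the other 10 the intervals overlapped. The difference between the classes was not itself tested, and the counts moved with the limits on Reln and on UMIs. In all, a median Reln-low barcode held 5 of the 9 regulators and a median Reln-high barcode 4.

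The barcodes were then clustered without the 9 genes, to see how the regulators lay over cell classes, and 8 clusters were made. These are a description with no test. A cluster was named where at least 3 fixed markers of a class were 2-fold above the other barcodes and 1 was among its 10 leading genes. A layer 6-like cluster (617 barcodes, 5 of 6 markers), an upper-layer-like cluster (373 barcodes, 6 of 7) and a CR-like cluster (245 barcodes, 8 of 8) were named. The CR-like cluster held 83.0% of the Reln-high barcodes. The rest kept the names of leading genes, Fezf2 (688 barcodes), Prss12 (314 barcodes, with 3 of 6 subplate markers), Snhg11 (152), Neurod1 (107) and Hmgb2 (17 barcodes, with all 5 cycling and all 6 radial glia markers). The Hmgb2-led cluster met the rule for both cycling and radial glia, with Cdk1 and Fabp7 among its leading genes. It is called here by its leading gene all the same.

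**Figure D4:**
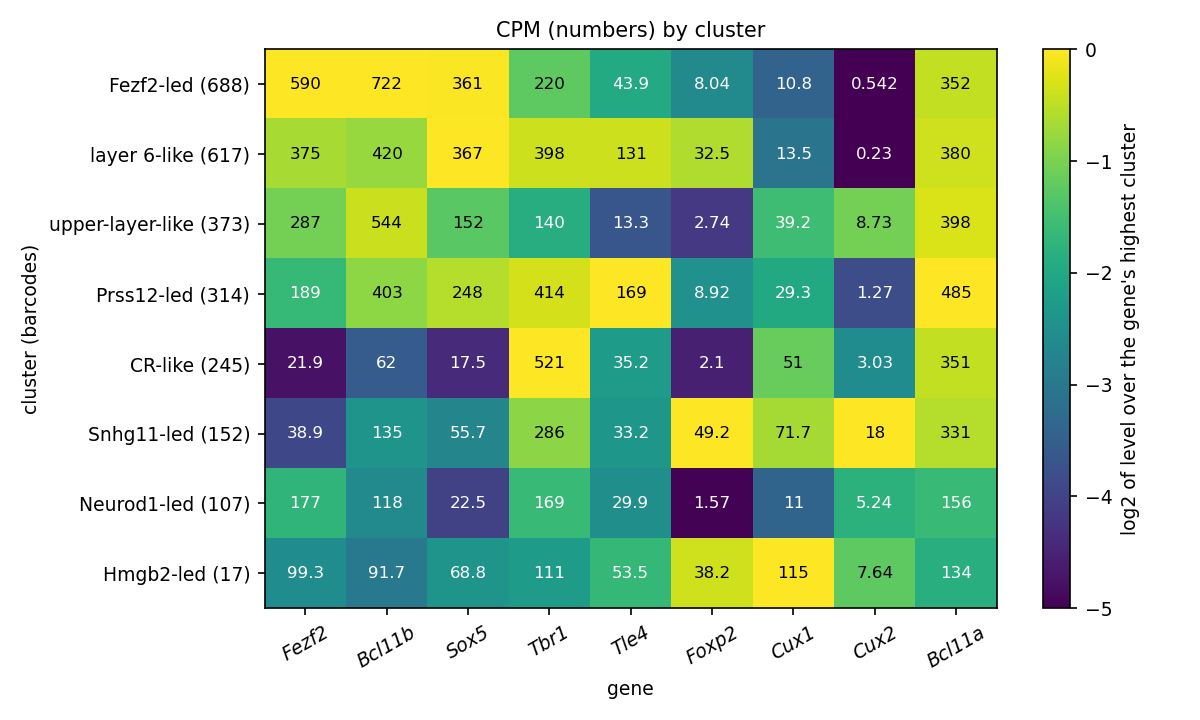
Levels of the 9 regulators in the 8 clusters, with the number in each cell in CPM and the colour as log2 of the level over the gene's highest cluster. Each gene has its own high clusters, Fezf2 and Bcl11b in the Fezf2-led cluster (590 and 722), Tle4 in the Prss12-led cluster (169) and Tbr1 in the CR-like cluster (521), and the level of Bcl11a varied least.

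Fezf2 had 590 CPM in the cluster it led, though it took no part in making it, then 375 in the layer 6-like, 287 in the upper-layer-like, 189 in the Prss12-led, 177 in the Neurod1-led, 99.3 in the Hmgb2-led, 38.9 in the Snhg11-led and 21.9 in the CR-like cluster. Neighbours in this order did not overlap except the Prss12-led (177 to 202) and the Neurod1-led (159 to 197) clusters. Bcl11b had 722 in the Fezf2-led and 544 in the upper-layer-like cluster, and 62.0 in the CR-like one. Sox5 was level between the layer 6-like (367, 354 to 380) and Fezf2-led (361, 350 to 373) clusters, and had 17.5 in the CR-like cluster. So Bcl11b but not Sox5 had its second highest level in the upper-layer-like cluster, where Sox5 had 152.

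Tbr1 was highest in the CR-like cluster, at 521 (499 to 543), then had 414 in the Prss12-led, 398 in the layer 6-like, 286 in the Snhg11-led and 220 in the Fezf2-led cluster. Tle4 had 169 (158 to 181) in the Prss12-led, 131 (123 to 138) in the layer 6-like, 43.9 in the Fezf2-led and 13.3 in the upper-layer-like cluster. Foxp2 parted from Tle4, with 32.5 in the layer 6-like and 49.2 (40.8 to 58.8) in the Snhg11-led cluster but 8.92 in the Prss12-led one. Its share of barcodes was 24.6% in the layer 6-like, 13.2% (8.23 to 19.6%) in the Snhg11-led and 0.935% in the Neurod1-led cluster. The layer 6-like share lay above that of haemoglobin and the Snhg11-led share did not. A share does not weigh the UMIs per barcode, and the Snhg11-led cluster had the highest Foxp2 level, on 120 UMIs in 152 barcodes. Its Foxp2 was thus held by few barcodes, and the part of free RNA in it was not tested.

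Cux1 had 115 (77.3 to 164) in the Hmgb2-led cluster of 17 barcodes, then 71.7 (61.5 to 83.1) in the Snhg11-led, 51.0 in the CR-like, 39.2 in the upper-layer-like and 10.8 in the Fezf2-led cluster. Cux2 had 18.0 (13.1 to 24.2) in the Snhg11-led and 8.73 (6.50 to 11.5) in the upper-layer-like cluster, but 0.23 in the layer 6-like one. Both upper-layer markers were therefore higher in the unnamed Snhg11-led cluster than in the upper-layer-like one. That cluster had 4 of 8 CR markers and 2 of 6 interneuron markers (Gad1 and Dlx5) 2-fold above the rest. None of these was among its 10 leading genes, and 32 of its barcodes were Reln-high. With 12 clusters, Cux1 (76.3) and Cux2 (15.52) were highest, among clusters of 20 or more barcodes, in a cluster of 51 barcodes. It had 7 of 8 CR markers up and 40 Reln-high barcodes. A cluster of 109 barcodes had overlapping levels (66.9 and 13.1), with 2 CR markers, Gad1 and Lhx6 up. Snhg11 was a leading gene of both. The part of CR neurons in the Cux1 and Cux2 of the Snhg11-led cluster was not tested. Bcl11a ranged 3.11-fold, from 485 in the Prss12-led to 156 in the Neurod1-led cluster, and Tbr1 3.72-fold, while the other 7 genes ranged at least 5-fold over the 7 clusters of 20 or more barcodes.

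The pairs were taken again within the 8 clusters, with the Mantel-Haenszel odds ratio over Reln-low barcodes. Of the 19 pairs called, 2 were still past the same limit, and the same number within 12 clusters. Fezf2 and Cux2 had 0.332 within 8 clusters, and Cux1 and Cux2 had 2.17. Bcl11b and Sox5 had 1.10 in place of 5.37, Fezf2 and Bcl11b 1.31 in place of 4.30, and Fezf2 and Cux1 0.753 in place of 0.374. Tbr1 and Tle4 had 0.998. Bcl11b and Cux2 changed side, with 1.66 in place of 0.427. Most co-detection and exclusion of these genes thus lay between the clusters rather than among the barcodes inside one. The clusters were made from genes that can vary with the 9.

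**Figure D5:**
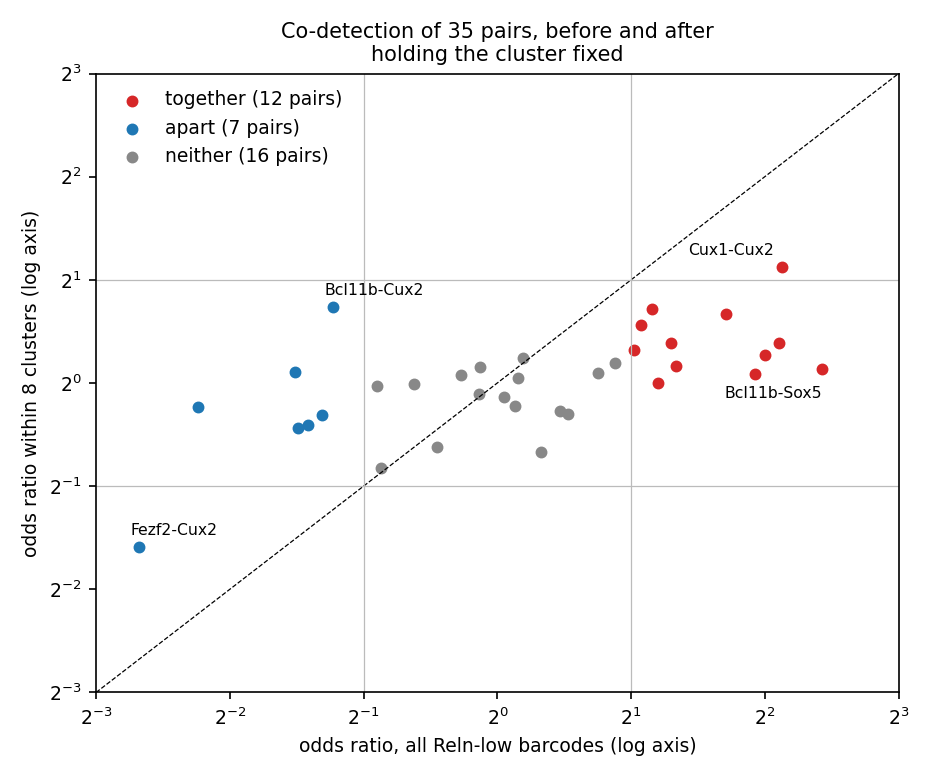
Odds ratio of co-detection for 35 pairs in all Reln-low barcodes (horizontal, log axis) and within 8 clusters (vertical, log axis), coloured by the call in all barcodes; grey lines mark 0.5 and 2 and the dashed line equality. Most points lie nearer 1 on the vertical axis, and Fezf2 with Cux2 (0.332) and Cux1 with Cux2 (2.17) are the called pairs still past a grey line on their own side.

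The regulators were also paired with the gene lists in Reln-low barcodes. Tle4 was together with 4 of 7 layer 6 genes, beside 2.98% of all genes paired with Tle4. These were the sulphotransferase Hs3st4 (3.36), Kitl (2.80), the neurotensin receptor Ntsr1 (3.03) and Rprm (2.64). It was apart from 6 of 11 callosal and upper-layer genes, beside 3.29% of all, as with the POU factors Pou3f1 (0.217), Pou3f2 (0.259) and Pou3f3 (0.303). Of 5 subplate genes Tle4 was together with 4, among them Nxph3 (3.76) and Lpar1 (4.34).

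Cux2 had mostly the opposite pattern. It was together with 5 of 8 callosal and upper-layer genes, beside 4.03% of all genes, such as Plxna4 (5.41), Lhx2 (3.41) and Pou3f1 (3.15). From 1 of these 8 it was apart. Of 4 subplate genes Cux2 was together with 1 and apart from 2. It was apart from 4 of 6 layer 6 genes, beside 5.62%, as with Syt6 (0.168) and Hs3st4 (0.222). Tbr1 was apart from 4 of 10 callosal and upper-layer genes, beside 1.47%, and together with 3 of 7 layer 6 genes, beside 3.12%.

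Fezf2 was together with 5 of 15 layer 5 genes, beside 2.3% of all genes paired with it, and apart from 2, beside 5.1%. The 5 were the LIM cofactor Ldb2 (2.38), Crym (2.22), S100a10 (2.33), Diaph3 (2.61) and the cadherin Cdh13 (2.69), and the 2 were Cntn6 (0.381) and Ntng1 (0.280). Of the 7 layer 6 genes it was together with 3, Syt6 (2.91), Rprm (2.83) and Sla (2.09), and apart from none, with a median odds ratio of 1.37 over the 7 against 1.25 over the 15 layer 5 genes. Over 11 callosal and upper-layer genes the median odds ratio with Fezf2 was 0.98. Of these Fezf2 was together with 1, Rorb (2.08), and apart from 1, Plxna4 (0.372). Being apart from Cux1 and Cux2 thus did not extend to most of this list. Fezf2 was also apart from its own paralogue Fezf1, at 0.171 (0.0816 to 0.356), with both in 16 barcodes. This was not particular to the paralogues, since Fezf1 was also apart from Sox5, at 0.189 (0.09 to 0.392), and from Tbr1, at 0.251 (0.121 to 0.533). Sox5 was together with 4 of 7 layer 6 genes, beside 2.95%, and its highest value with a listed gene was with Cdh13, at 8.40 (6.52 to 10.8).

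The genes whose levels went most with each regulator were ranked over 7450 genes by Pearson's r of log counts across the 2225 Reln-low barcodes, which share 1 library and an equal depth. For Fezf2 these were Neurod6 (r = 0.41), Sox4 (0.41) and Eef1a1 (0.40). For Bcl11b they were Sox4 (0.42), Neurod6 (0.39) and Fezf2 (0.39), so that 1 regulator stood among the 3 nearest genes of another. Sox5 had Ssbp2 (0.42), Sox4 (0.41) and Dync1i1 (0.41). Tbr1 had Sybu (0.37), Celf4 (0.35) and Meg3 (0.34), and Tle4 had Nxph3 (0.39), Sybu (0.39) and Wnt7b (0.38), with Sybu in both. Cux1 reached 0.22 with Ptn and Bcl11a 0.22 with Mpped1, and Foxp2 and Cux2 had no gene at 0.2 or more.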

How the data were processed

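Single cells were run on the 10x Genomics Chromium platform. The deposited values were raw UMI counts per gene and barcode, made by the authors with Cell Ranger 2.0.0 on mm10, per the submitters' processing notes, which also name Seurat 2.0. The annotation release is not given in the sources used here. Transcript ends were counted, so transcripts of 1 gene were joined.

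The 3000 barcodes, 10718 to 76690 UMIs each and 57180867 in all, all met a minimum of 1000 genes and a maximum mitochondrial share of 10%, and the 487 above 25000 UMIs were left out. No doublet caller was used in the main analysis. Barcodes were thinned to 10000 UMIs without replacement (fixed seed). Levels (CPM) were UMIs per 1000000 UMIs of the summed counts. Exact intervals were Poisson for levels, conditional binomial for ratios, Clopper-Pearson for shares and conditional for odds ratios. Background pairs were of genes detected in 5% to 95% of the barcodes. Clusters were K-means (50 starts) on 20 principal components of the 2000 most variable genes without the 9. The rule for naming clusters was set with the data in view. The study's own cell annotation was not used here, so names may differ from it.

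Named genes were the 9 regulators and Reln, for each regulator the 3 genes of highest correlation (printed at 0.2 or more), and members of 5 fixed gene lists past the limits, of which some are not reported here. The members and lists were chosen with earlier results of these data known. Genes were located in GENCODE M21 (GRCm38). Python 3.11.15, scipy 1.17.1, numpy 2.4.6, scikit-learn 1.9.0 and scanpy 1.11.5 were used. The ratio and odds ratio steps were tested on simulated data with known answers.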

Additional observations from a re-analysis of the deposited data

How the results depend on the processing

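No paired analysis was possible because the barcodes carry no replicate number and all samples form 1 group. The number of regulators at least 2-fold lower in Reln-high barcodes ran from 3 to 5 over 8 alternatives, and the number higher was 1 in each. The counts of pairs moved more. In Reln-low barcodes the pairs together (12) were 7 after thinning to 5000 UMIs, 7 with detection at 2 or more UMIs, and 1 within 8 or 12 clusters, where the pairs apart (7) were 1. With 2 alternatives chosen after seeing the data they were 4 at 3 or more UMIs and 6 with each gene divided at its own median. In Reln-high barcodes the pairs apart (0) were 2 with no limit on UMIs, 3 at a Reln limit of 2 per 10000, and 1 after thinning to 5000, at full depth or at the median. The pairs together there (1) were 6 with no limit on UMIs, 8 at a Reln limit of 2, 2 with another seed, and 0 at a Reln limit of 10, with 2000 genes and 5% mitochondrial UMIs, at 2 or more UMIs, and within 8 or 12 clusters. The causes of these shifts were not tested. Of the pairs called in Reln-low barcodes, those whose odds ratio crossed 1 were Bcl11b and Cux2 (1.66 within 8 and 1.43 within 12 clusters), Tle4 and Cux2 (1.07 within 8), Tbr1 and Tle4 (0.998 and 0.993), Bcl11b and Tbr1 (0.985 at 3 UMIs, 0.788 at the median) and Sox5 and Foxp2 (0.698 at 3 UMIs). Of 466 odds ratios recomputed in Reln-low barcodes 360 lay within the interval reported, and 70 of the 98 that left it without crossing 1 lay nearer 1. Tbr1 at high over no Fezf2 kept its direction in 7 of 7 alternatives (log2 -0.43 to -0.30), and 7 genes ranged at least 5-fold over 12 clusters too. Without a minimum count the background of genes 2-fold lower was 24.2%. Scrublet removed 11 barcodes.

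With 1 library, the spread between embryos was not measured. Foxp2 and Cux2 rest on 18 and 19 UMIs in Reln-high barcodes, and their pairs there were too few to assess. Free RNA adds single UMIs to barcodes that lack a gene, and its part in the pairs was not tested.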
